A study of Mus musculus with 13 samples.

Results

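The 29 genes described here are the genes of cholesterol and fatty acid synthesis, with the regulators that set their transcription, and all 29 were found by symbol among the 24079 genes of the count table. They comprise 17 enzymes from the start of the mevalonate pathway to cholesterol, 5 genes of sterol regulation and transport, and 7 genes of fatty acid synthesis, and other genes of these pathways that are not among them or in the lists below were not analysed here. Expression was measured by RNA-seq in CGR8 cells, a mouse embryonic stem (ES) cell line kept without feeder cells on gelatin, with leukemia inhibitory factor (LIF) and foetal bovine serum. The control cells (3 replicates) received 0.5% DMSO, the solvent, and the treated cells (3 replicates) received 10 μM PhenDC3 in 0.5% DMSO, both for 48 h. PhenDC3 is a small molecule that binds and stabilises G-quadruplexes (G4), the four-stranded structures that G-rich DNA or RNA can fold into. All samples come from this single line at a single dose and a single time, with the solvent in both groups. Short nascent strand sequencing (SNS-seq), which maps where DNA replication starts, was available for the same conditions as lists of peaks from 3 control and 2 PhenDC3 replicates.

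Cholesterol is built from acetyl-CoA by way of mevalonate, farnesyl diphosphate, squalene and lanosterol, and fatty acids are built from the same acetyl-CoA by way of malonyl-CoA. Both sets of enzymes are transcribed under the control of the SREBP factors, which sit as precursors in the membrane of the endoplasmic reticulum. When sterols are scarce, the escort protein Scap carries SREBP to the Golgi, where proteases release its active part, and when sterols are plentiful, Insig proteins hold Scap and SREBP back. Dividing ES cells use both pathways for membranes, and serum in the medium also supplies sterols and fatty acids.

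The 6 RNA-seq libraries held between 22232014 and 29486502 counts. Levels are given as CPM, the counts of a gene relative to the normalized total of its library, in the order of replicates 1, 2 and 3, so a lower level is lower relative to the other RNA of the same library. They are not divided by gene length and are compared only for 1 gene between libraries. In bulk RNA, fewer cells of a type and less RNA per cell cannot be told apart. The labels do not say whether the replicates came from separate cultures, so the tests below measure the spread between these libraries. The ribosomal RNA precursor Rn45s took 5.70%, 2.55% and 4.86% of the counts in the control libraries and 0.346%, 0.172% and 1.43% in the PhenDC3 libraries, and its part in the results was not tested.

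Transcripts of 20 of the 29 genes were lower after PhenDC3 and 1, Elovl6, was higher, with 8 not called (edgeR quasi-likelihood test, Benjamini-Hochberg adjusted p of at most 0.05). Lower genes thus made up 69.0% of these genes, against 18.7% of all 13972 genes tested. Higher genes made up 3.45%, against 18.0% of all genes tested. The median log2 fold change of the 29 genes was -0.69, and that of all genes tested was 0.01. In 21 of the 29 genes every PhenDC3 library lay below every control library, a separation found for 25.6% of the genes tested. In 2 genes, Scap and Acss2, every PhenDC3 library lay above every control, against 25.0% of the genes tested, although neither of them passed the test. A log2 fold change of -1 or lower was found for 10 of the 29 genes, against 6.27% of all genes tested.

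**Figure D1:**
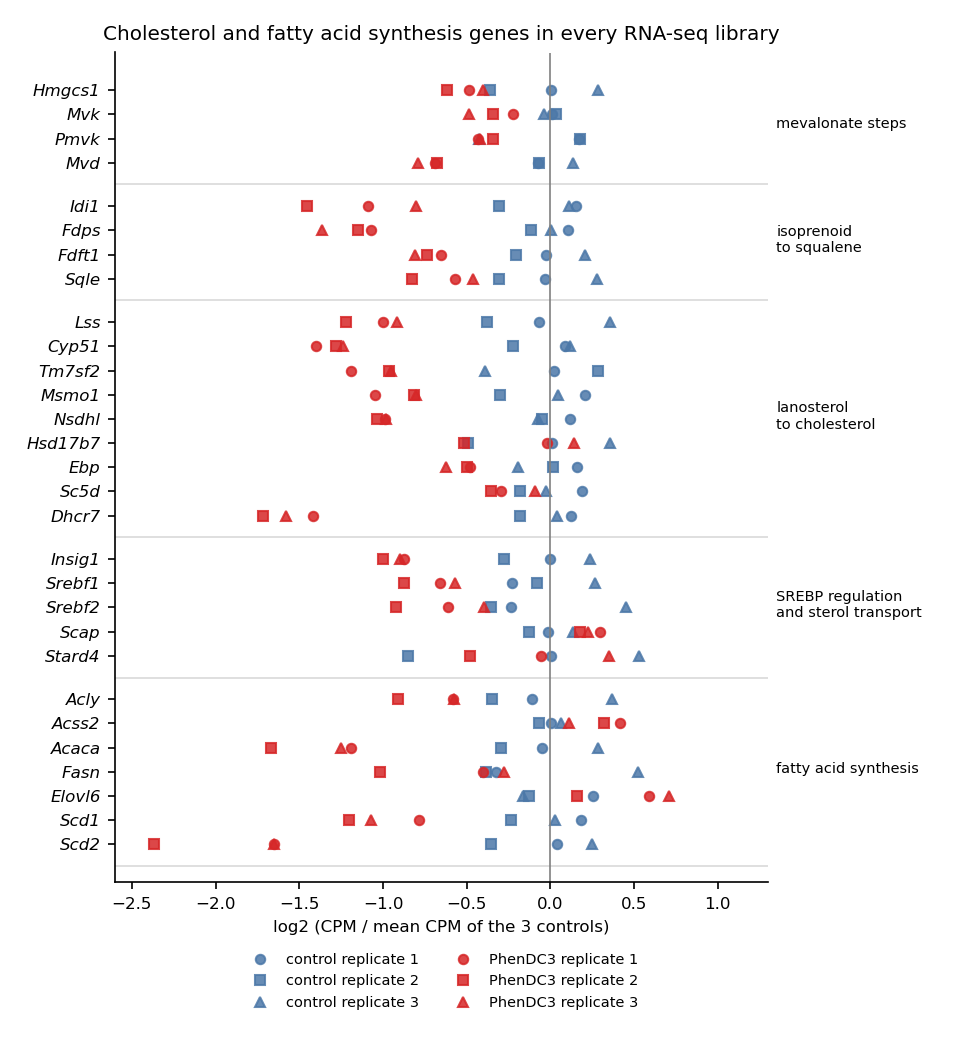
Level of each of the 29 genes in every RNA-seq library, as the log2 of its normalized CPM over the mean CPM of the 3 controls (horizontal axis), with genes grouped by step and 1 symbol per library (blue, control; red, PhenDC3). Red symbols lie left of all blue symbols for 21 genes and right of them for Scap and Acss2, and Dhcr7 and Scd2 lie farthest to the left.

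Summed over the 17 enzymes of sterol synthesis, the controls held 1390, 1148 and 1457 CPM and the PhenDC3 libraries 768, 712 and 785 CPM. The PhenDC3 mean was 56.7% of the control mean, and the groups did not overlap. The 7 genes of fatty acid synthesis summed to 2200, 1823 and 2847 CPM in the controls and to 1482, 1062 and 1528 CPM after PhenDC3, or 59.3% of the control mean. Most of this second sum came from Acly, Fasn and Scd2. Of the 17 sterol enzymes, 14 were lower and 3 were not called, and of the 7 fatty acid genes, 4 were lower and 1 was higher.

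The stretches of DNA before the start sites of 4 of these genes are shown here, because PhenDC3 acts on G-rich sequence and because the factors known to act with SREBP bind close to the start. Dhcr7, Cyp51 and Fdps were the lower genes with the smallest adjusted p, and Elovl6 was the single higher gene; no window was held for Fdps. Hmgcs1 was added after the matches were seen, as the gene whose window matched the sterol element in the form searched. Each line gives the 250 bases upstream of an annotated start, 5′ to 3′ on the strand of the gene, from RefSeq on GRCm38.p6 (mm10), with the CCAAT boxes (either strand), a G4 pattern and, in Hmgcs1, the sterol element in capitals.
Dhcr7, chr7:143829964-143830213, plus strand, 1 of its 3 starts: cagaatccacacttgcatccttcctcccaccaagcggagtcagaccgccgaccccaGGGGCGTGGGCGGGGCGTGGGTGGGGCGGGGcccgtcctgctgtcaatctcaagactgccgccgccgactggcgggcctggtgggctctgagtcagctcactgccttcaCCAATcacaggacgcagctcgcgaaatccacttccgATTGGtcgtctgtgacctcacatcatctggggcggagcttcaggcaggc
Cyp51, chr5:4104698-4104947, minus strand: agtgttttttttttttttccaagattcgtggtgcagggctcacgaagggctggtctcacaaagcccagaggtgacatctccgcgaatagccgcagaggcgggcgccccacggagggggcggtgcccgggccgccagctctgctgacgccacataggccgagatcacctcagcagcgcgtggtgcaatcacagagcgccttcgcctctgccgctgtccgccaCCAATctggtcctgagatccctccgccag
Elovl6, chr3:129532136-129532385, plus strand: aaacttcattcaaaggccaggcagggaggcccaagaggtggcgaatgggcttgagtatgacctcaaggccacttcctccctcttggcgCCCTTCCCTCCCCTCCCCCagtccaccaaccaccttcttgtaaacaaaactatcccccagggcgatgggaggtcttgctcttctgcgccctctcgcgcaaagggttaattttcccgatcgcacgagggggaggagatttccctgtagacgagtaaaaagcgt
Hmgcs1, chr13:119690101-119690350, plus strand: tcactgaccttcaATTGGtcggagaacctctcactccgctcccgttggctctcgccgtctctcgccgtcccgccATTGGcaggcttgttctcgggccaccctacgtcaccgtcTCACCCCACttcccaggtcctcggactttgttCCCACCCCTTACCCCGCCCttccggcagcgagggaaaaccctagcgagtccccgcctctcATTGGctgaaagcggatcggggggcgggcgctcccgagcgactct
The Dhcr7 window shown held a G4 pattern from position -194 to -164 relative to the start and a pair of CCAAT boxes nearer to it. It was chosen after the matches were seen, and the windows of the other two Dhcr7 starts held neither a G4 pattern nor a CCAAT box. In Elovl6, the pattern lay on the opposite strand, where it reads as runs of C, from position -162 to -144, and the window held neither a CCAAT box nor a GC box. Cyp51 had 1 CCAAT box and no G4 pattern.

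Windows of 250 bases before to 50 after a start were held for 23 of the 29 genes (not for Fdps, Fdft1, Sqle, Stard4, Scd1 and Scd2) and for 11044 of the genes tested, and a gene with several starts has several windows. CCAAT, the motif that the factor NF-Y reads, was found on either strand in 20 of the 23 genes (87.0%), against 43.0% of the genes tested. GGGCGG, the GC box of the Sp1 family, was in 19 of 23 (82.6%, against 68.5%), and the E-box CACGTG in 5 of 23 (21.7%, against 11.7%). The sterol element, searched as TCACNCCAC, was matched in Hmgcs1 alone (4.35%, against 1.49%), as TCACCCCAC from position -137 to -129. A G4 pattern, 4 runs of at least 3 G joined by loops of 1 to 7 bases, was in 7 of 23 genes (30.4%), against 31.9% of the genes tested. GC boxes lie within a G4 pattern in Dhcr7, Hmgcs1, Acly and Srebf1. Matches of letters are a description of these windows and do not show that a factor or a G4 was present.

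Of the 7 genes with the G4 pattern, which were Hmgcs1, Tm7sf2, Sc5d, Dhcr7, Srebf1, Acly and Elovl6, 5 were lower and 1 was higher, with a median log2 fold change of -0.68. Among the 16 genes without it, 10 were lower, with a median of -0.67. Genes with and without the pattern thus had similar medians, and the difference was not tested.

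Of the 4 genes of the first steps of the pathway, from acetyl-CoA to the isoprenoid unit, 3 were lower and Pmvk was not called. Hmgcs1, the synthase that makes HMG-CoA, stood at 257, 199.96 and 313 CPM in the controls and at 183, 167 and 194 CPM after PhenDC3, so that the highest PhenDC3 library lay just below the lowest control. Its log2 fold change was -0.50 ± 0.16 (SE, n = 3 libraries a group, as for all fold changes here; edgeR adjusted p = 0.0388). Mvk, the kinase that phosphorylates mevalonate, moved from 27.9, 28.4 and 27.0 to 23.7, 21.9 and 19.8 CPM (log2 fold change -0.35 ± 0.12, edgeR adjusted p = 0.0439). These 2 calls were the least stable among the lower genes. Hmgcs1 kept its call in 1 of the 6 fits that left out a library (the one without control replicate 2) and Mvk in 1 of 6 (the one without control replicate 3), with adjusted p of up to 0.109 and 0.154.

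Pmvk, which adds the next phosphate, was at 50.02, 50.06 and 33.0 CPM in the controls and at 32.8, 35.002 and 33.1 CPM after PhenDC3. Control replicate 3 thus lay within the PhenDC3 range, and the gene was not called (log2 fold change -0.40 ± 0.16, edgeR adjusted p = 0.0861), but without that library the adjusted p was 0.0038. With a block for the replicate number, a pairing that no label states, edgeR called Pmvk lower (adjusted p = 0.0158). Mvd, the decarboxylase that makes isopentenyl diphosphate, was at 51.1, 51.3 and 59.2 CPM in the controls and 33.4, 33.7 and 31.1 CPM after PhenDC3, with a wide gap between the groups. Its log2 fold change was -0.72 ± 0.11 (edgeR adjusted p = 0.00146).

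All 4 genes from isopentenyl diphosphate to squalene epoxide were lower. Idi1, the isomerase, was at 174, 126 and 169 CPM in the controls and at 73.4, 57.1 and 89.6 CPM after PhenDC3, 46.9% of the control mean. Fdps, which makes the farnesyl diphosphate from which sterols and prenyl groups branch, was at 200.3, 172 and 187 CPM in the controls and at 88.6, 84.2 and 72.4 CPM after PhenDC3. The Fdps groups were tight and far apart, with a mean of 186 ± 14.1 CPM (SD, n = 3) against 81.7 ± 8.39 CPM, and a log2 fold change of -1.19 ± 0.12 (edgeR adjusted p = 1.95e-04).

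Fdft1, the squalene synthase that commits farnesyl diphosphate to sterols, was at 98.4, 86.9 and 116 CPM in the controls and at 63.8, 60.1 and 57.2 CPM after PhenDC3 (log2 fold change -0.73 ± 0.13, edgeR adjusted p = 0.00254). Its annotated span overlaps that of Ctsb, and the strand setting of the counting is not given. Sqle, the epoxidase that acts on squalene, moved from 102, 84.6 and 127 to 70.3, 58.9 and 75.8 CPM (log2 fold change -0.61 ± 0.16, edgeR adjusted p = 0.0175). Although its groups did not overlap, the call was lost without PhenDC3 replicate 1 (adjusted p = 0.0556) and without PhenDC3 replicate 2 (0.058).

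The steps from lanosterol to cholesterol held the largest falls among the sterol enzymes, with 7 of 9 genes lower and a median log2 fold change of -1.003. Lss, which closes the rings to form lanosterol, was at 64.7, 52.1 and 86.7 CPM in the controls and at 33.9, 29.1 and 35.9 CPM after PhenDC3 (log2 fold change -1.04 ± 0.18, edgeR adjusted p = 0.00269). Cyp51, the lanosterol demethylase, was at 93.0, 75.0 and 94.9 CPM in the controls and at 33.2, 36.0 and 37.1 CPM after PhenDC3. The highest PhenDC3 library lay far below the lowest control, and the log2 fold change of Cyp51 was -1.31 ± 0.12 (edgeR adjusted p = 1.59e-04).

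Tm7sf2, a sterol reductase whose span overlaps that of Vps51, was at 15.998, 19.2 and 12.02 CPM in the controls and at 6.90, 8.07 and 8.13 CPM in the PhenDC3 replicates (log2 fold change -1.03 ± 0.19, edgeR adjusted p = 0.00336). Msmo1 and Nsdhl, which act together in removing methyl groups from the sterol ring, were both lower. Msmo1 was at 84.1, 59.0 and 75.1 CPM and then at 35.1, 41.3 and 41.7 CPM (log2 fold change -0.89 ± 0.15, edgeR adjusted p = 0.00214). Nsdhl had the closest PhenDC3 libraries of all, at 18.6, 18.1 and 18.7 CPM after 40.1, 35.8 and 35.2 CPM in the controls, a log2 fold change of -1.003 (edgeR adjusted p = 3.05e-04).

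Hsd17b7, the reductase of the same demethylation step, did not follow. Its libraries were at 13.4, 9.48 and 17.1 CPM in the controls and at 13.1, 9.33 and 14.7 CPM after PhenDC3, nearly the same range (log2 fold change -0.10 ± 0.24, edgeR adjusted p = 0.759). Ebp, the isomerase that moves a double bond in the sterol ring, was at 28.2, 25.5 and 22.1 CPM and then at 18.1, 17.9 and 16.4 CPM (log2 fold change -0.53 ± 0.13, edgeR adjusted p = 0.0123). Sc5d, the desaturase that follows it, was at 22.6, 17.5 and 19.5 CPM in the controls and at 16.2, 15.6 and 18.6 CPM after PhenDC3, overlapping and not called (log2 fold change -0.24, edgeR adjusted p = 0.208).

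Dhcr7, the reductase of the last step of one branch to cholesterol, had the smallest adjusted p of the 29 genes. It was at 67.3, 54.4 and 63.5 CPM in the controls and at 23.1, 18.8 and 20.6 CPM after PhenDC3, 33.8% of the control mean. The log2 fold change was -1.57 ± 0.13 (edgeR adjusted p = 9.49e-05), and it stayed between -1.65 and -1.49 whichever library was left out.

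**Figure D2:**
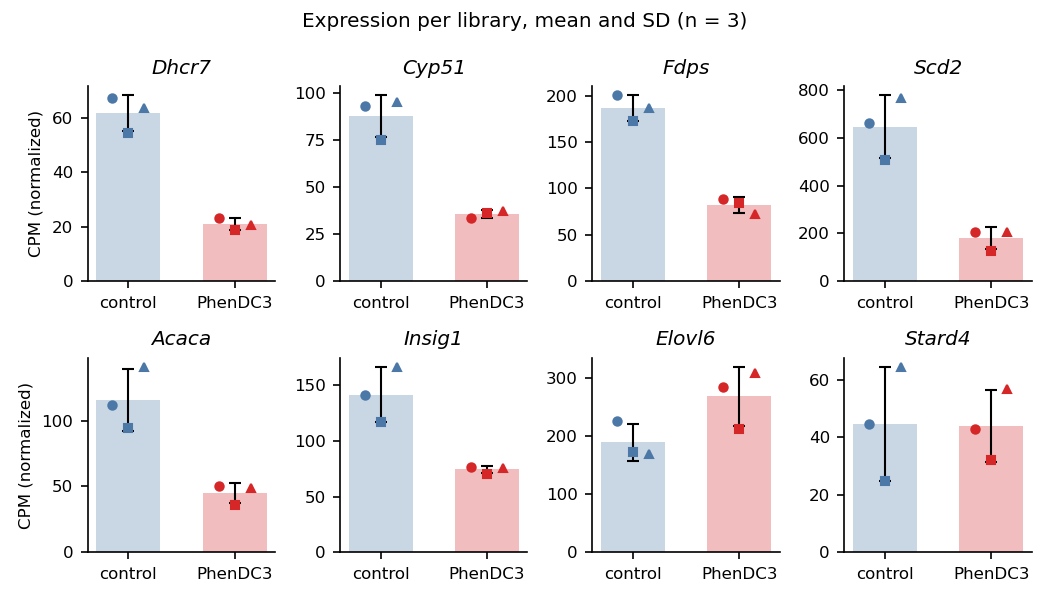
Normalized CPM (vertical axis, starting at 0) of 8 of the genes, chosen after their values were seen, with bars for the mean, error bars for the SD (n = 3) and 1 symbol per library (circle, square and triangle for replicates 1, 2 and 3). The groups lie apart for Dhcr7, Cyp51, Fdps, Scd2, Acaca and Insig1, overlap in part for Elovl6 and cover each other for Stard4.

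Among the 5 genes of regulation and transport, 2 were lower and 3 were not called. Insig1, which holds SREBP back and is itself a well-known target of SREBP, was at 141, 117 and 167 CPM in the controls and at 77.1, 70.8 and 75.8 CPM after PhenDC3, 52.7% of the control mean (log2 fold change -0.92 ± 0.14, edgeR adjusted p = 0.0013). Srebf1, which encodes the SREBP form best known for fatty acid synthesis, was at 72.0, 79.9 and 101 CPM and then at 53.5, 46.0 and 57.0 CPM (log2 fold change -0.69 ± 0.15, edgeR adjusted p = 0.00696). Its span overlaps that of Rai1 and 2 microRNA genes. Srebf2, which encodes the form best known for sterol synthesis, was at 158, 145 and 255 CPM in the controls and at 122, 98.2 and 142 CPM after PhenDC3. Every PhenDC3 library of Srebf2 lay below every control, but control replicate 3 lay far above the other controls and the gene did not pass (log2 fold change -0.63 ± 0.22, edgeR adjusted p = 0.0519). DESeq2 on the same counts called it (adjusted p = 0.0184), as did edgeR with a block for the replicate number (adjusted p = 1.28e-04). Without control replicate 3, the log2 fold change of Srebf2 shrank to -0.34 (edgeR adjusted p = 0.115). Without control replicate 2 it was -0.78, and the gene was called (edgeR adjusted p = 0.0231).

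Scap, the escort of SREBP, was at 38.3, 35.4 and 42.5 CPM in the controls and at 47.6, 43.7 and 45.2 CPM after PhenDC3, apart by a narrow margin and not called (log2 fold change 0.23 ± 0.11, edgeR adjusted p = 0.135). Stard4, which transfers sterols between membranes, was the most variable of the 29 genes within the controls, at 44.7, 24.7 and 64.6 CPM against 42.9, 32.0 and 56.8 CPM after PhenDC3. The means of Stard4, 44.6 ± 19.9 and 43.9 ± 12.4 CPM (SD, n = 3), were nearly equal (log2 fold change -0.02 ± 0.32, edgeR adjusted p = 0.962), and with this spread a moderate change in either direction could not be detected.

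Fatty acid synthesis held both the largest fall and the single gene called higher. Acly, which makes cytosolic acetyl-CoA from citrate for both pathways, was at 621, 524 and 862 CPM in the controls and at 447, 356 and 449.5 CPM after PhenDC3 (log2 fold change -0.68 ± 0.19, edgeR adjusted p = 0.0197). As for Sqle, its call was lost without PhenDC3 replicate 1 (adjusted p = 0.0508) or without PhenDC3 replicate 2 (0.0597). Acss2, which makes acetyl-CoA from acetate, lay slightly higher after PhenDC3, at 17.4, 16.2 and 14.1 CPM after 13.03, 12.4 and 13.6 CPM in the controls, and did not pass the test (log2 fold change 0.29 ± 0.14, edgeR adjusted p = 0.125).

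Acaca, the carboxylase that commits acetyl-CoA to fatty acids, was at 112, 94.4 and 141 CPM in the controls and at 50.6, 36.3 and 48.6 CPM after PhenDC3, 39.1% of the control mean (log2 fold change -1.36 ± 0.18, edgeR adjusted p = 6.92e-04). Its span overlaps those of Tada2a and Gm11437. Fasn, the synthase that uses the product of Acaca, was at 431, 414 and 774 CPM in the controls and at 408, 266 and 445 CPM after PhenDC3. PhenDC3 replicate 3 lay above control replicates 1 and 2, so the Fasn groups overlapped, and the gene was not called (log2 fold change -0.53 ± 0.27, edgeR adjusted p = 0.148). With a block for the replicate number, a pairing that no label states, edgeR called Fasn lower (adjusted p = 0.00329). In the 6 fits that left out a library, Fasn stayed uncalled. Its log2 fold change there lay between -0.70 and -0.18 (edgeR adjusted p of up to 0.490).

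Scd1 and Scd2, paralogs on chromosome 19 that put the double bond into saturated fatty acids, were both lower. Scd1 was at 132, 98.5 and 118 CPM in the controls and at 67.4, 50.4 and 55.2 CPM after PhenDC3 (log2 fold change -1.01 ± 0.15, edgeR adjusted p = 0.00122). Scd2 was at 665, 506 and 769.6 CPM and then at 206, 125 and 206 CPM, 27.7% of the control mean. With a log2 fold change of -1.85 ± 0.22 (edgeR adjusted p = 4.41e-04), Scd2 had the lowest value of the 29 genes. Since the 2 genes are similar in sequence, reads that match both may have been left out of the counting.

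Elovl6, which lengthens the fatty acids that Fasn makes, was the single gene called higher. It was at 227, 174 and 169.5 CPM in the controls and at 285, 212 and 309.8 CPM after PhenDC3, where PhenDC3 replicate 2 lay below control replicate 1. The log2 fold change was 0.50 ± 0.17 (edgeR adjusted p = 0.0459), and the call was lost with TMM scaling (adjusted p = 0.0500) and in 4 of the 6 fits that left out a library, those without control replicate 2 or 3 or PhenDC3 replicate 1 or 3 (adjusted p of up to 0.153).

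**Figure D3:**
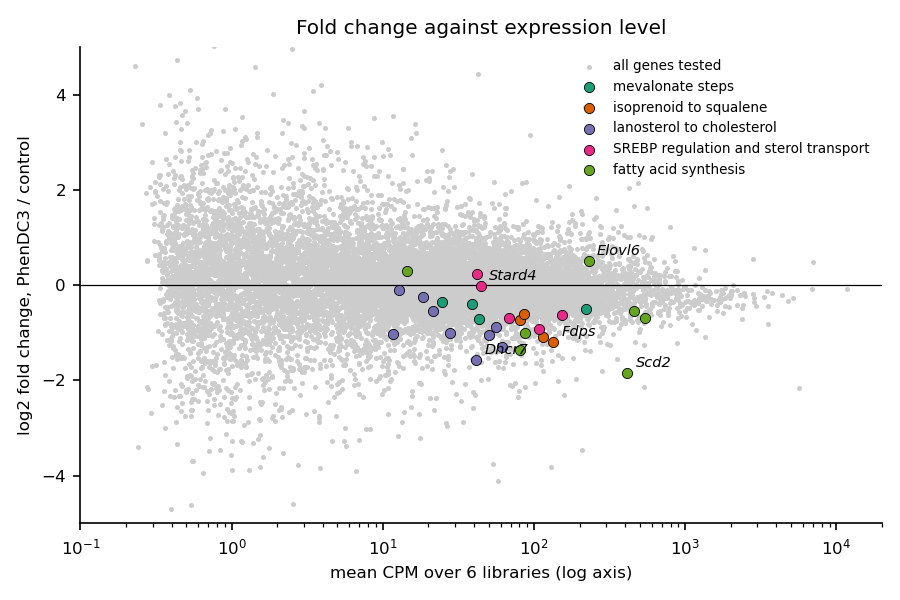
Log2 fold change of PhenDC3 over control (vertical axis) against mean CPM over the 6 libraries (horizontal axis, log scale), with all genes tested in grey and the 29 genes in the colour of their group; 9 grey genes beyond 5 on the log2 scale are not shown. The 29 genes lie at middle to high levels and mostly below the line at 0, with Scd2 lowest and Elovl6 above it.

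The replicates of a group differed in how much of these genes they held. Control replicate 3 had the highest control value for 17 of the 29 genes and control replicate 2 the lowest for 21, against 37.7% and 34.7% of all genes tested. After PhenDC3, replicate 3 was highest for 17 and replicate 2 lowest for 19, against 35.5% and 38.2% of all genes tested. The median log2 ratio of the 29 genes to the control mean was 0.01, -0.22 and 0.13 for the controls and -0.65, -0.87 and -0.62 for the PhenDC3 libraries. The control libraries were thus spread over a range of about the size of the log2 fold change of Mvk, and every PhenDC3 library lay below that range.

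Neighbouring pathways were read from 6 further lists, whose values are set beside the 29 genes without a test of the lists. Their counts are to be read against the 18.7% of all genes tested that were lower and the 18.0% that were higher. Of 13 other genes known as SREBP targets, 6 were lower (46.2%) and 2 were higher (15.4%, near the share of all genes), with a median log2 fold change of -0.47. Mid1ip1, which activates acetyl-CoA carboxylase, moved from 21.3, 25.9 and 30.8 to 4.61, 4.35 and 6.54 CPM (log2 fold change -2.33 ± 0.21, edgeR adjusted p = 1.17e-04), a larger fall than that of any of the 29 genes. Tmem97, a sterol-binding membrane protein, moved from 119, 88.8 and 91.6 to 55.7, 52.0 and 56.0 CPM (log2 fold change -0.87). By contrast, Lpin1, a phosphatase of triglyceride synthesis, was higher, at 53.9, 47.3 and 49.3 CPM after 21.7, 22.1 and 30.0 CPM in the controls (log2 fold change 1.03). Me1, the malic enzyme that supplies NADPH, was also higher, at 64.2, 69.8 and 64.0 CPM after 43.8, 36.7 and 37.0 CPM (log2 fold change 0.75).

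Of 7 genes that process or hold SREBP, 2 were higher (28.6%, against 18.0% of all genes tested) and 5 were not called (median 0.02). Insig2, the relative of Insig1, went from 21.2, 15.2 and 18.1 to 25.8, 28.4 and 28.6 CPM (log2 fold change 0.60 ± 0.14, edgeR adjusted p = 0.0113), and so moved opposite to Insig1. Mbtps2, one of the proteases that release SREBP, had a log2 fold change of 0.50 (edgeR adjusted p = 0.0235), and its call was lost without control replicate 2 (adjusted p = 0.0567) or PhenDC3 replicate 3 (0.0848). In the isoprenoid branch that leads from farnesyl diphosphate to ubiquinone, dolichol and prenylated proteins, 1 of 12 genes was lower, Pdss1 of ubiquinone synthesis (log2 fold change -0.79), and 1 was higher, Dhdds of dolichol synthesis (0.50), 8.33% in each direction.

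Of 14 genes tested for sterol uptake, efflux and esterification, 4 were higher (28.6%, against 18.0% of all genes tested) and 10 were not called (median 0.31). Abca1, the pump that exports cholesterol, was at 44.6, 36.2 and 44.4 CPM after PhenDC3 and at 21.8, 18.0 and 23.95 CPM in the controls, with no overlap (log2 fold change 0.97 ± 0.15, edgeR adjusted p = 0.00125). Nr1h3, which encodes the oxysterol receptor LXR alpha, stood at low levels, 0.362, 0.821 and 0.649 CPM in the controls and 1.32, 1.97 and 1.34 CPM after PhenDC3 (log2 fold change 1.346, edgeR adjusted p = 0.0193). Osbp, an oxysterol-binding protein, and Mylip, a ligase that degrades a lipoprotein receptor, had log2 fold changes of 0.56 and 0.61. The calls of 3 of these 4 genes were lost when a library was left out: Nr1h3 without control replicate 1 or PhenDC3 replicate 2, Osbp without PhenDC3 replicate 1, and Mylip without any single library other than control replicate 3.

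Of 20 genes tested for the elongation, activation and esterification of fatty acids, 7 were lower (35%, against 18.7% of all genes tested) and 1 was higher (5%, against 18.0%), with a median of -0.14. Acsl5, an acyl-CoA synthetase, went from 15.02, 14.9 and 19.2 to 3.36, 4.56 and 5.37 CPM (log2 fold change -1.89 ± 0.21, edgeR adjusted p = 2.64e-04). Mcat of mitochondrial fatty acid synthesis, Acsl3, another acyl-CoA synthetase, and Tecr, the reductase of the elongation cycle, had log2 fold changes of -0.82, -0.76 and -0.60. Tecr acts in the same cycle as Elovl6, which was higher.

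In the oxidation of fatty acids in mitochondria, 3 of 13 genes tested were higher (23.1%, near the 18.0% of all genes tested) and 1 was lower (7.69%, against 18.7%), with a median of -0.21. Slc25a20, the carrier that takes acylcarnitine into mitochondria, was at 178, 209 and 174 CPM after PhenDC3 and at 66.7, 60.3 and 51.1 CPM in the controls, 315% of the control mean (log2 fold change 1.65 ± 0.14, edgeR adjusted p = 8.86e-05). Cpt1a, the transferase that makes acylcarnitine, was at 96.2, 101 and 113 CPM after 61.7, 57.6 and 71.9 CPM (log2 fold change 0.70). Etfdh, which passes electrons on from the oxidation, was higher (0.52), and Hadhb, of the oxidation cycle itself, was lower (-0.40). The call of Etfdh was lost without PhenDC3 replicate 1, and that of Hadhb without control replicate 1 or any one of the PhenDC3 replicates.

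**Figure D4:**
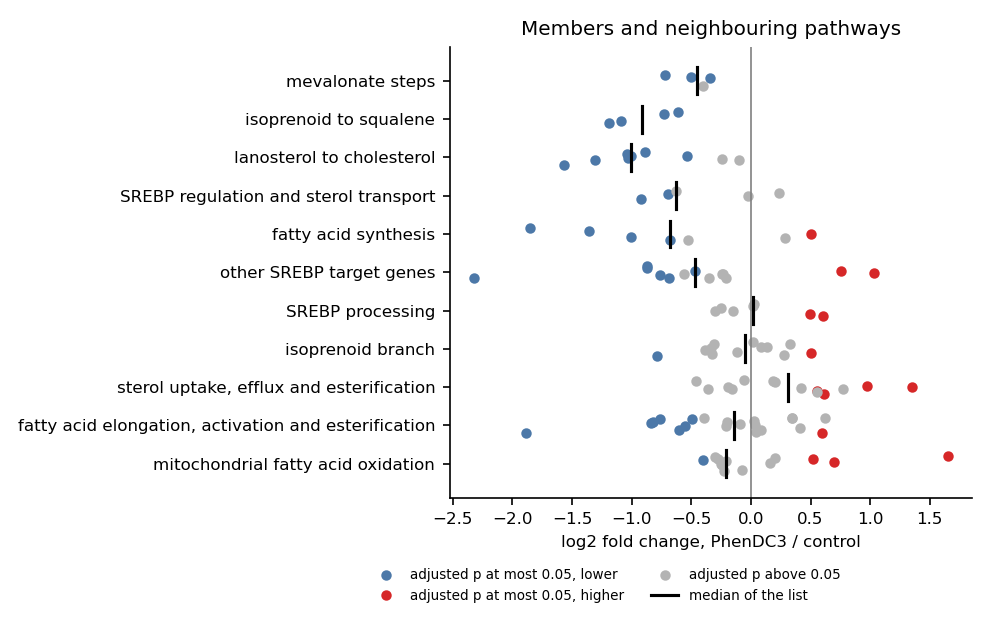
Log2 fold change of PhenDC3 over control (horizontal axis) for every tested gene of the 5 groups of the 29 genes and of the 6 neighbouring lists, with 1 point per gene (blue, lower; red, higher; grey, adjusted p above 0.05) and a black bar at the median. The medians of the isoprenoid and lanosterol steps, at -0.91 and -1.003, lie farthest to the left and that of sterol uptake and efflux, at 0.31, farthest to the right.

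The cells expressed the ES cell markers in both groups. The 8 ES cell markers summed to between 6479 and 6903 CPM in the controls and between 8455 and 9426 CPM after PhenDC3, where 4 were higher (50%, against 18.0% of all genes tested; Nanog, Klf4, Tfcp2l1 and Dppa5a) and Pou5f1 was lower. Markers of other cell types also moved with the treatment, and are set against the 18.0% of all genes tested that were higher and the 18.7% that were lower. Of 8 markers of primitive endoderm, 6 were higher (75%), while Sox7 and Dab2 were not called. The 8 summed to between 282 and 352 CPM in the controls and between 488 and 618 CPM after PhenDC3, mostly from Lama1. Of 5 tested for trophoblast, 3 were higher (60%), namely Gata3, Tfap2c and Krt8. The trophoblast list summed to between 64.7 and 81.0 CPM and between 136 and 173 CPM, mostly from Tfap2c and Krt8. Mean Cdx2 was 0.339 CPM in the controls and 0.331 CPM after PhenDC3. Eomes was not called (log2 fold change -0.47), though every PhenDC3 library lay below every control. Markers of mesoderm and neural cells summed to between 87.6 and 94.7 CPM and between 93.3 and 116 CPM, with 1 higher and 1 lower of 5 tested (20% each, near the share of all genes). Fibroblast markers were near 0, at sums of up to 3.99 CPM, and Lum and Dcn of this list had no count in any library. Col1a1 and Col1a2 had counts in every library and were not called (log2 fold changes 0.68 and 1.64). The part of these marker changes in the lower lipid synthesis transcripts was not tested.

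SNS-seq peaks near the starts of these genes were read as presence or absence within 2 kb of an annotated start. The authors called them per replicate against an RNase-treated library, and they give an enrichment with no read counts, so depth is unknown. An RNase-treated sample is listed for each group, so enrichments in control and PhenDC3 lists may be relative to different libraries. Of the 29 genes, 19, 18 and 13 had a peak in the lists of control replicates 1, 2 and 3, and 19 and 16 in those of PhenDC3 replicates 1 and 2. The shares of tested genes with a peak in the same lists were 67.2%, 64.6%, 39.2%, 64.3% and 46.0%. A peak in at least 2 control lists was found for 17 of the 29 genes (58.6%, against 62.2% of tested genes), and in both PhenDC3 lists for 15 (51.7%, against 41.5%). The first of these comparisons turned with the lists used. With 1 control list left out, a peak was required in both remaining lists. This gave 44.8% of the 29 genes against 35.4% of tested genes without control replicate 1, and the same shares without control replicate 2. Without control replicate 3 it gave 58.6% against 58.4%. With stronger peaks only, the first comparison was 55.2% against 46.4%. The second kept its direction, but the gap narrowed to 55.2% against 54.6% within 5 kb. It was 37.9% against 33.9% within 1 kb, and 27.6% against 25.1% with stronger peaks. With 3 lists against 2, no exact test over the replicates could reach a p under 0.05, and none was run.

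The strongest single peak stood at Dhcr7. Its enrichment over an RNase-treated library was 10.6, 10.9 and 12.1 in the controls and 5.96 and 14.1 after PhenDC3. The PhenDC3 values of Dhcr7 lie on both sides of the controls, while its transcript was lower in every PhenDC3 library. Pmvk had peaks of 13.6, 7.91 and 11.1 in the controls and of 3.09 and 4.45 after PhenDC3. Scd2 had no peak in any control list and peaks of 8.25 and 7.49 in both PhenDC3 lists, and was the only one of the 29 genes with this pattern. How common the pattern is among all tested genes was not determined. Sqle had peaks of 7.84 and 11.3 in 2 control lists and none in the third or after PhenDC3.

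Peaks were present in all 5 lists for 11 of the 29 genes, of which 6 were lower. No list had a peak for 7 genes (Mvk, Fdps, Nsdhl, Hsd17b7, Ebp, Stard4 and Acaca), of which 5 were lower. Lower transcripts were thus found with and without a peak near the start, and the difference was not tested. The shares of all tested genes with a peak in all 5 lists or in none were not determined, so these counts have no background.

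**Figure D5:**
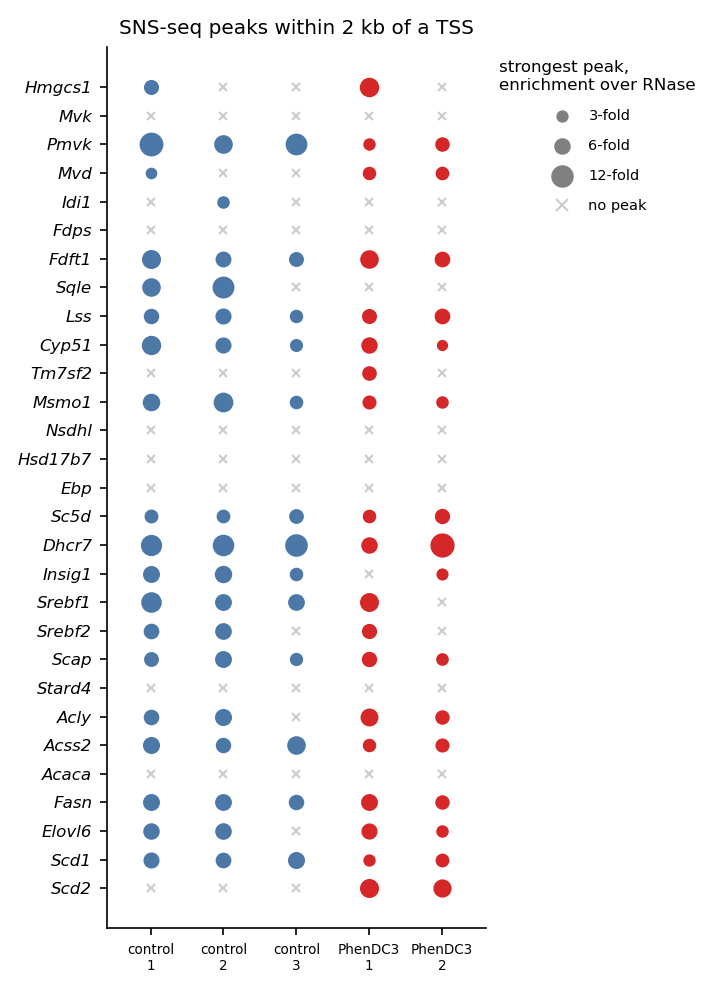
SNS-seq peaks within 2 kb of a start of each of the 29 genes (rows) in the 5 lists (columns, blue for control and red for PhenDC3). The area of a circle grows with the enrichment of the strongest peak over an RNase-treated library, and a cross marks where no peak was listed. Dhcr7 has a circle in every list, Scd2 in the PhenDC3 lists alone, and 7 genes have crosses throughout.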

How the data were processed

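RNA-seq was analysed for 3 control and 3 PhenDC3 libraries, and SNS-seq peaks for 3 control and 2 PhenDC3 replicates. For RNA-seq, the authors mapped stranded mRNA libraries with TopHat 2.1.1 and Bowtie2 2.2.9 and deposited raw counts per gene from HTSeq 0.6.1p1. The annotation and the strand setting are not given in the sources used here. For SNS-seq, the authors mapped reads to mm10 and called peaks with MACS2 2.1.0 in each replicate. The deposited lists give each peak as a fold enrichment (a ratio to an RNase-treated library) with its −log10 p-value and q-value. The q-value was not used. The deposited columns of the authors' own comparison (log2 fold changes with errors, p-values and the mean normalized signal) and a table of normalized values were not used.

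Counts were normalized by relative log expression and tested with edgeR 4.0.16 (R 4.3.3; quasi-likelihood, robust, filterByExpr), with Benjamini-Hochberg adjustment over the 13972 genes that passed the filter. All 29 genes passed. The SE of a log2 fold change is its size divided by the square root of the F statistic, an approximation. The depth of 22232014 to 29486502 counts a library limits precision mainly for genes under a few CPM. The script was tested on simulated counts.

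The alternatives were TMM scaling, DESeq2 1.42.0, other filters on low counts, a fit that was not robust, a replicate block, each library left out, other windows, stronger peaks and longer G4 loops. The 29 genes and the lists were chosen with earlier results of these data known. All 29 were named, and from each further list up to 4 called genes with the smallest adjusted p. Starts and windows come from curated RefSeq transcripts on GRCm38.p6, and members of lists were matched by symbol or gene number. Replicate numbers of control and PhenDC3 libraries were not taken as pairs.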

Additional observations from a re-analysis of the deposited data

How the results depend on the processing

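Of the 29 genes, 19 kept the same call under every alternative, and 19 of the 20 lower genes kept it under every other scaling, tool and filter, the exception being Mvk without a filter on low counts (adjusted p = 0.0605). Between 16 and 20 of the 29 genes were lower when a library was left out, against 20 with all, and 16 of the 20 stayed lower in every such fit. With TMM scaling 0 of the 29 genes were higher in edgeR, where Elovl6 just missed (DESeq2 called it), and 0 to 1 when a library was left out; these fits hold fewer samples. Over all genes tested, 1623 to 2727 were lower when a library was left out, the lowest without PhenDC3 replicate 1. The sign turned for 2 genes that were not called: Hsd17b7 ranged from -0.30 to 0.11 and Stard4 from -0.32 to 0.33 with a library left out.

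Same-numbered control and PhenDC3 libraries deviated together by a correlation of 0.09, 0.544 and 0.405 for replicates 1, 2 and 3, and every library correlated best with its own number. The sample numbers in the column headers also place same-numbered control and PhenDC3 libraries side by side. No label states that they share a culture or a day. With the replicate block, 3797 genes were higher and 3692 lower, 23 of the 29 genes were lower (Pmvk, Srebf2 and Fasn in addition, with adjusted p of 0.0158, 1.28e-04 and 0.00329), 27 genes of the 6 neighbouring lists were lower in place of 15, and Stard4 had a log2 fold change of 0.0344.

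With stronger peaks only (above the median −log10 p of their list), 8 of the 29 genes had a peak in both PhenDC3 lists in place of 15, and with loops of up to 12 bases 12 genes had a G4 pattern in place of 7; both settings act by construction on all genes (25.1% and 47.4% of those tested). The causes of the other changes were not tested. Annotated spans of 8 of the 29 genes, introns included, overlap another counted gene. Whether their exons overlap was not checked, and without the strand setting it is unknown whether any reads were shared.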
